A study of Homo sapiens with 8 samples.

Results

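The genes described are 9 that handle glutamine and carry amino acids across the plasma membrane: GLUL, ASNS, GLS2, SLC1A5, SLC38A1, SLC38A2, SLC7A5, SLC3A2 and SLC7A11. They were chosen as genes linked to MYC by their part in glutamine breakdown and amino acid uptake, and were found among the 60668 gene rows of the count files by Ensembl identifier and GENCODE symbol. All 9 were present, and all 9 passed the filter on low counts, which kept genes over 1 CPM in 4 or more of the 8 libraries. Expression was measured by RNA-Seq of polyA+ RNA in D283-OMO cells, which are D283 MED medulloblastoma cells transduced with a lentivirus that carries OMOMYC fused to a FLAG-tag under doxycycline (DOX) control. OMOMYC is a mini-protein that acts as a dominant negative of MYC. The study compared 4 untreated replicates, in which no MYC inhibitor was induced, with 4 replicates given DOX for 72 h.

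Both groups carry the transgene, and all libraries come from 1 cell line selected with hygromycin after transduction. Cells without the transgene that received DOX were not analysed here, so an effect of DOX itself cannot be told apart from that of OMOMYC. Libraries held between 46592947 and 54020506 counts in the untreated group and between 38390696 and 49249167 with DOX. Values are CPM, the count of a gene relative to its library's total after TMM scaling in edgeR, and a floor of 3 counts corresponds to between 0.0581 and 0.0748 CPM. Mitochondrial genes took 4.73% to 5.13% of the counts of untreated libraries and 5.70% to 5.95% of those with DOX. The labelled cell type was checked on 8 genes typical of Group 3 medulloblastoma, of which all 8 were expressed, with a median log2FC of -2.40 and falls of 7, from -1.04 for OTX2 to -3.55 for NRL. OTX2 stood at 1049 ± 17.4 CPM (SD, n = 4) untreated and 510 ± 1.79 CPM (SD, n = 4) with DOX, and NRL at 28.7 ± 2.48 and 2.45 ± 0.264 CPM (SD, n = 4 each). CRX, NEUROD1, IMPG2 and NPR3 fell too, with log2FC of -2.59, -2.23, -3.01 and -2.57. Fewer such cells, or less RNA per cell, cannot be told apart in bulk RNA, and the part of this fall in the results on the 9 genes was not tested. MYC RNA, from which reads of the OMOMYC transgene cannot be told apart, stood at 939 ± 75.6 CPM (SD, n = 4) untreated and 1123 ± 56.8 CPM (SD, n = 4) with DOX, and the groups overlapped. Its log2FC was 0.26 (standard error 0.06, adjusted p = 0.00237, edgeR quasi-likelihood test). Of a list of 8 genes made of MYC, its partner MAX and known MYC targets, 5 were lower and 3 higher with DOX. Over all genes tested, 38.1% were called lower and 38.5% higher by the same test. CAD and NCL had log2FC of -0.48 and -0.44 (standard errors 0.05 and 0.04), LDHA, CDK4 and NPM1 of -1.09, -0.84 and -0.78, and ODC1 and MAX of 0.32 and 0.39.

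Glutamine is the most abundant free amino acid in plasma and supplies nitrogen for nucleotides, asparagine and amino sugars as well as carbon for the citric acid cycle. Glutamine synthetase makes it from glutamate and ammonia, glutaminases turn it back into glutamate, and asparagine synthetase spends it on asparagine. Cells take it up through sodium-coupled carriers such as ASCT2 and the SNAT proteins. Exchangers built from a light chain and the heavy chain 4F2hc then trade intracellular amino acids for leucine or cystine. In many tumours MYC is known to raise the expression of several of these carriers, while amino acid shortage raises others through the transcription factor ATF4.

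With DOX, 7 of the 9 genes were lower, 1 was higher and 1 did not pass the test, with edgeR's quasi-likelihood test and a limit of 0.05 on the adjusted p. The falls ranged from GLS2, which kept 31.9% of its untreated level, to SLC3A2, which kept 77.1%. SLC38A1 was 1.42-fold higher, and SLC38A2 was the gene that did not pass. Among all 15222 genes tested, 76.6% passed the same test, 38.1% lower and 38.5% higher with DOX, so a gene that passes is the usual case in these libraries. The sizes of the changes were larger among the 9 genes, with a median absolute log2FC of 1.11 against 0.43 over all genes tested and a median log2FC of -1.11 against 0.01. A log2FC below -1 was called for 5 of the 9 genes, namely GLS2, GLUL, SLC1A5, SLC7A5 and SLC7A11, and for 9.81% of all genes tested. The 9 genes were chosen with earlier results of these data known, so these contrasts with all genes are a description and not a test. When libraries were scaled by their totals alone, without TMM factors, the median of all genes moved to a log2FC of 0.14 and the calls split into 7157 higher and 4715 lower genes in place of 5868 and 5793. Under that scaling 3 of the 9 genes had a log2FC below -1, and the 7 falls and the rise kept their direction and their call.

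None of the 9 genes passed thresholds for differential expression of an FDR below 0.001 with an absolute log2FC above 2, which 7.12% of all genes tested passed. These stand in the methods of the study, whose results text has an FDR of 0.01, and with that limit none of the 9 passed either. The count was also 0 in DESeq2's Wald test. The untreated and DOX libraries did not overlap for 8 of the 9 genes, as for 71.7% of all genes tested. For each of these 8 genes a two-sided exact permutation test of the library values gave p = 0.0286, the smallest that 4 libraries against 4 allow.

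**Figure D1:**
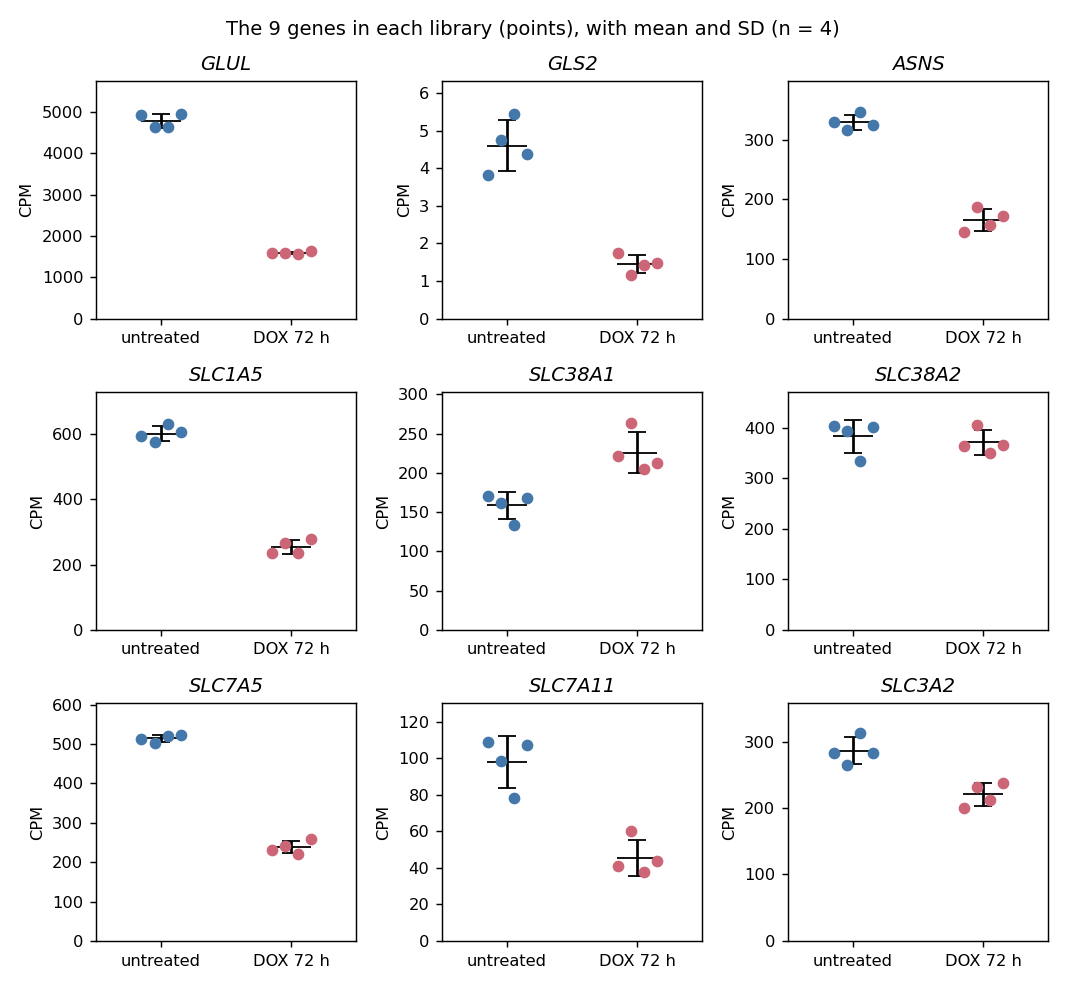
Level of each of the 9 genes in CPM (TMM-scaled, linear axis from 0), with 1 point per library, a horizontal line at the mean and a bar of 1 SD either way (n = 4 untreated and n = 4 DOX libraries). The groups are apart in 8 panels, with DOX below untreated in 7 and above it for SLC38A1, and they overlap for SLC38A2.

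**Figure D2:**
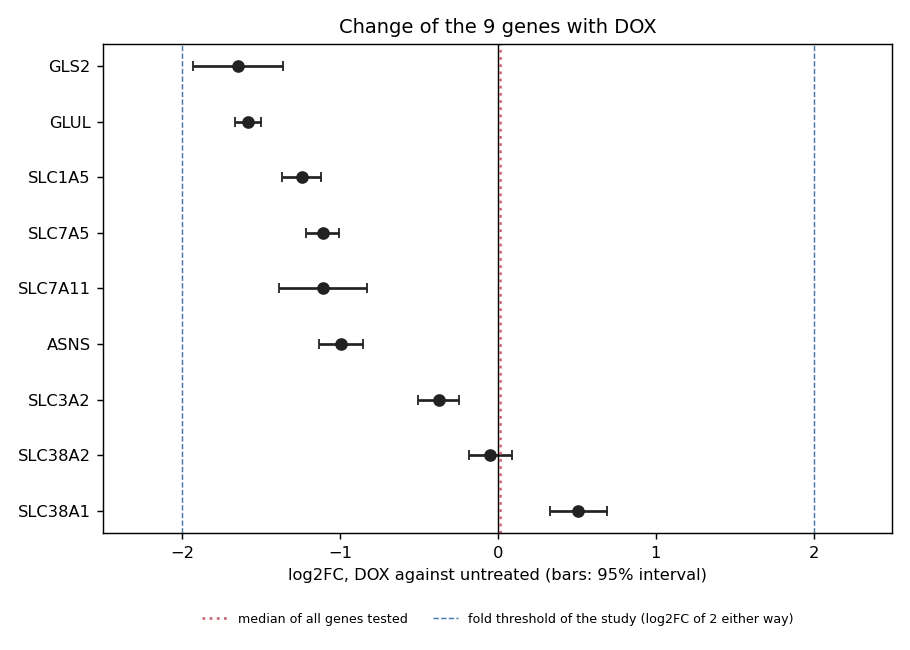
Log2FC of the 9 genes (horizontal axis, DOX against untreated), with bars for the 95% interval, ordered from the largest fall to the largest rise. The dotted line marks the median of all genes tested, at 0.01, and the dashed lines mark a log2FC of 2 either way, which no point reaches.

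The promoters of these genes were searched for the letters of a pair of short elements, since MYC is known to bind the E-box CACGTG and ATF4 to bind amino acid response elements, whose core is written here as TGATGNAA. Both strands were searched, from 250 bases before to 50 bases after each start that RefSeq lists on GRCh38.p14. Of the 9 genes, 8 matched by symbol, with 15 windows in all, and SLC7A11 is named only. The E-box stood in 2 of the 8 genes, SLC1A5 and SLC7A5, against 8.78% of the 27305 genes in the table. The ATF4 core stood in 4 of the 8, ASNS, SLC1A5, SLC3A2 and SLC38A1, against 4.46% of genes. In SLC3A2 it lay 37 bases after an internal start, on the strand opposite to the gene. In SLC38A1 it began 4 bases before an internal start. No window held both elements, and by window the shares were 7.26% and 3.62% of 35116 windows. The 8 genes had more windows per gene than the genes of the table, so the shares by gene are not fully alike. In the lines that follow, capitals mark the matched letters, and each stretch is 5′ to 3′ on the strand of its gene, which is the minus strand in each case. The first is shown because ASNS is a classical ATF4 target, and the next pair because SLC1A5 is the gene that holds both elements, at different starts.
ASNS, chr7:97872458-97872487, core beginning 68 bases before the start: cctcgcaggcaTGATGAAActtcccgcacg
SLC1A5, chr19:46787326-46787355, E-box beginning 50 bases before an internal start: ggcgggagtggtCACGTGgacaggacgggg
SLC1A5, chr19:46784893-46784922, core beginning 97 bases before a further internal start: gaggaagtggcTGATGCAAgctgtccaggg
SLC7A5 has a single window, and the 250 bases before its start (chr16:87869508-87869757) are given whole because its E-box, 130 bases before the start, lies near the gene's annotated 5′ end.
SLC7A5: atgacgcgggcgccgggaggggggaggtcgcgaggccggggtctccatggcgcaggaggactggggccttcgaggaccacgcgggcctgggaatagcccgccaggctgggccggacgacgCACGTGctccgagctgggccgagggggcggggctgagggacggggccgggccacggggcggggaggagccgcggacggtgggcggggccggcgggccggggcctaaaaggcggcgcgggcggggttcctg
Both E-box genes fell, and of the 4 genes with the ATF4 core 3 fell and 1 rose, with SLC1A5 counted under both elements. Among all 9 genes 7 fell, so a fall was the usual case. GLS2 and GLUL, with the largest falls, at log2FC of -1.65 and -1.59, held neither element in the windows searched. The same was true of SLC38A2, which did not pass. Sequence outside these windows, such as introns further from a start, was not searched. Binding was not measured in these libraries, and a match of letters is a description only.

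GLUL (ENSG00000135821.18, chromosome 1, 182381704 to 182392206, minus strand of GRCh38) encodes glutamine synthetase, the enzyme that makes glutamine from glutamate and ammonia. It was among the most abundant transcripts of these cells, number 11 of 15222 genes by mean CPM, a scale that favours long transcripts. The untreated libraries held 4932, 4629, 4643 and 4947 CPM, and the DOX libraries held 1594, 1582, 1568 and 1636 CPM. Replicates lay close together in both groups, with coefficients of variation of 3.67% and 1.84%, and every DOX library stood far below the lowest untreated one. The mean fell from 4788 ± 175.5 CPM to 1595 ± 29.4 CPM (SD, n = 4 each), and the log2FC was -1.59 ± 0.04 (SE, edgeR quasi-likelihood test, adjusted p = 2.47e-11). Even so GLUL remained number 42 of all genes with DOX. Counts behind these values ranged from 63475 to 241716, the deepest of the 9 genes. GLUL alone held 66.8% of the summed CPM of the 9 genes in untreated cells and 51.2% with DOX.

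In neural tissue GLUL is known as an enzyme of astrocytes and of the Müller glia of the retina, so markers of those cells were read beside it. Of 10 such markers, 5 passed the filter, and GFAP, AQP4, ALDH1L1, S100B and RLBP1 did not, with GFAP at 0.293 CPM untreated and 0.0744 CPM with DOX. The summed level of the 10 lay between 193 and 213 CPM untreated and between 113 and 119 CPM with DOX. GJA1, SLC1A3 and SLC1A2 fell, with log2FC of -1.03, -1.60 and -0.30, and the groups overlapped for SLC1A2. AGT and FGFR3 rose, with log2FC of 4.23 and 1.24, AGT from 0.886 to 16.6 CPM. AGT was under 1 CPM in every untreated library, so it passed the filter only through the DOX libraries, where it was high. The tested markers other than AGT moved in both directions, and their part in the fall of GLUL was not tested.

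ASNS (ENSG00000070669.17, chromosome 7, 97852118 to 97872542, minus strand) encodes asparagine synthetase, which moves the amide nitrogen of glutamine onto aspartate. It stood at 331, 316, 346 and 325 CPM in the untreated libraries and at 145, 187, 157 and 172 CPM with DOX. The groups were well apart, while the DOX libraries spread more widely than the untreated ones, with coefficients of variation of 10.97% and 3.84%. The means were 329 ± 12.6 CPM and 165 ± 18.2 CPM (SD, n = 4 each), so ASNS kept 50.2% of its untreated level, at a log2FC of -0.99 (standard error 0.07, adjusted p = 1.44e-07, edgeR quasi-likelihood test). A same-strand transcript, AC079781.5, shares 1985 exonic bases with ASNS, or 44.6% of its exonic length. That transcript stood at 8.79 ± 0.795 CPM untreated and 9.16 ± 1.80 CPM with DOX (SD, n = 4 each). RSEM divides shared reads between such genes, and the division rests on the authors' counting.

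GLS2 (ENSG00000135423.13, chromosome 12, 56470944 to 56488414, minus strand) encodes the liver-type glutaminase, one of the mitochondrial enzymes that split glutamine into glutamate and ammonia. It was the least expressed of the 9 genes, with 187, 246, 267 and 195 counts in the untreated libraries and 89, 47, 73 and 67 with DOX. In CPM these were 3.82, 4.76, 5.43 and 4.37 untreated and 1.75, 1.17, 1.43 and 1.48 with DOX. No DOX library reached the lowest untreated one. Mean levels were 4.59 ± 0.678 CPM and 1.46 ± 0.239 CPM (SD, n = 4 each), a 3.13-fold fall with a log2FC of -1.65 ± 0.14 (SE, edgeR quasi-likelihood test, adjusted p = 7.48e-07). This was the largest log2FC of the 9 genes, and its 95% interval, -1.93 to -1.36, took in the estimate for GLUL. Of the exonic bases of GLS2, 77.1% also lie in exons of SPRYD4 on the opposite strand, which stood at 14.3 ± 0.892 CPM untreated and 11.2 ± 0.650 CPM with DOX (SD, n = 4 each). The study names a stranded library kit, but whether reads were counted by strand is not given in the sources used here. With this overlap the level of GLS2 is uncertain. Its counts were not whole numbers in any of the 8 libraries, which also held for ASNS, SLC1A5, SLC7A5 and SLC7A11.

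SLC1A5 (ENSG00000105281.12, chromosome 19, 46774883 to 46788594, minus strand) encodes ASCT2, a sodium-dependent exchanger that is a main route of glutamine into many tumour cells. It was the most abundant of the 6 transporters per kilobase of exon in both groups. The untreated libraries held 593, 575, 631 and 606 CPM and the DOX libraries 234, 268, 237 and 278 CPM. The highest DOX library stood far below the lowest untreated one. The mean fell from 601 ± 23.5 CPM to 254 ± 22.1 CPM (SD, n = 4 each), and the log2FC was -1.24 ± 0.06 (SE, edgeR quasi-likelihood test, adjusted p = 6.03e-09). An antisense transcript, AC008622.2, covers 23.4% of its exonic bases and stood at 2.25 ± 0.448 CPM untreated and 0.816 ± 0.242 CPM with DOX (SD, n = 4 each).

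SLC38A1 and SLC38A2 encode SNAT1 and SNAT2, sodium-coupled carriers of glutamine and other small neutral amino acids. SNAT2 is known to be induced when amino acids run short. Both genes lie on the minus strand of chromosome 12, SLC38A1 (ENSG00000111371.16) from 46183063 to 46270017 and SLC38A2 (ENSG00000134294.14) from 46358189 to 46372867, with 88171 bases between them. SLC38A1 was the 1 gene of the 9 that rose. Its untreated libraries held 171, 162, 134 and 168 CPM, and its DOX libraries 221, 264, 205 and 213 CPM. All DOX values lay above all untreated ones, and the mean went from 159 ± 17.1 CPM to 226 ± 26.2 CPM (SD, n = 4 each). The log2FC was 0.51 (standard error 0.09, adjusted p = 0.000332, edgeR quasi-likelihood test).

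SLC38A2 stood at 402, 393, 334 and 402 CPM in the untreated libraries and at 363, 405, 349 and 364 CPM with DOX. The groups overlapped, with the highest value of all in a DOX library and the lowest in an untreated one. Its log2FC was -0.05, with a 95% interval from -0.18 to 0.09 (adjusted p = 0.545, edgeR quasi-likelihood test, and p = 0.571, two-sided exact permutation test). The call changed when untreated replicate 3, at 334 CPM, was left out. Without it the log2FC was -0.12 with an adjusted p of 0.0302, again in edgeR's quasi-likelihood test. Without DOX replicate 3 the log2FC turned slightly positive instead, so the direction also depended on single libraries. The ratio SLC38A1/SLC38A2 was steadier than either gene, at 0.425, 0.411, 0.400 and 0.419 untreated and 0.610, 0.651, 0.588 and 0.585 with DOX. It went from 0.414 ± 0.0107 to 0.608 ± 0.0307 (SD, n = 4 each), a log2 difference of 0.55 (two-sided exact permutation test, p = 0.0286, 0.0571 after Benjamini-Hochberg adjustment over the 4 ratios shown and 0.0429 over the 6 first set). Every DOX library had a higher ratio of these neighbours on chromosome 12 than any untreated one, and whether the difference passes 0.05 depends on which ratios are adjusted together.

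SLC7A5 (ENSG00000103257.9, chromosome 16, 87830023 to 87869488, minus strand) encodes LAT1, the light chain that exchanges intracellular glutamine for leucine and other large neutral amino acids. Its untreated libraries held 513, 501, 520 and 522 CPM, and its DOX libraries 230, 241, 222 and 259 CPM. The untreated values were the closest together in relative terms of the 9 genes, with a coefficient of variation of 1.84%, and every DOX library lay far below them. The mean fell from 514 ± 9.47 CPM to 238 ± 16.0 CPM (SD, n = 4 each), and the log2FC was -1.11 ± 0.05 (SE, edgeR quasi-likelihood test, adjusted p = 3.15e-09).

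SLC7A11 (ENSG00000151012.13, chromosome 4, 138164097 to 138242349, minus strand) encodes xCT, the light chain that brings in cystine for glutathione in exchange for glutamate. It stood at 109, 98.4, 78.0 and 107 CPM untreated and at 40.8, 60.0, 37.9 and 43.6 CPM with DOX. Replicates were the least alike of the transporters, with coefficients of variation of 14.5% and 21.8%, yet the groups did not overlap. The mean went from 98.1 ± 14.2 CPM to 45.6 ± 9.92 CPM (SD, n = 4 each), and the log2FC was -1.11 ± 0.14 (SE, edgeR quasi-likelihood test, adjusted p = 2.02e-05). The point estimate matched that of SLC7A5, and the standard error was larger.

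SLC3A2 (ENSG00000168003.16, chromosome 11, 62856102 to 62888875, plus strand) encodes 4F2hc, also known as CD98, the heavy chain that carries both of these light chains to the membrane. It stood at 283, 265, 314 and 283 CPM untreated and at 201, 232, 212 and 238 CPM with DOX. Although the groups were apart, the gap between the lowest untreated and the highest DOX library was narrow. The mean fell from 286 ± 20.1 CPM to 221 ± 17.4 CPM (SD, n = 4 each), and the log2FC was -0.38 ± 0.07 (SE, edgeR quasi-likelihood test, adjusted p = 0.000304). This was the smallest fall of the 7.

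The RNA of the light chain LAT1 was lower relative to that of the heavy chain in every DOX library than in any untreated one. SLC7A5/SLC3A2 stood at 1.81, 1.89, 1.66 and 1.85 in the untreated libraries and at 1.15, 1.04, 1.05 and 1.09 with DOX. It went from 1.80 ± 0.101 to 1.08 ± 0.0497 (SD, n = 4 each), a log2 difference of -0.74 (two-sided exact permutation test, p = 0.0286, 0.0571 adjusted over the 4 ratios and 0.0429 over the 6). SLC7A11/SLC3A2 had the same log2 difference of -0.74, from 0.346 ± 0.0649 to 0.206 ± 0.0367 (SD, n = 4 each), and missed the threshold also before adjustment (exact permutation p = 0.0571, 0.0762 and 0.0686 adjusted over the 4 and the 6). Untreated replicate 3, at 0.249, lay below the highest DOX library, at 0.259. No difference between the light chains was detected, with SLC7A5/SLC7A11 at 5.34 ± 0.902 untreated and 5.37 ± 0.910 with DOX (SD, n = 4 each, log2 difference 0.00, exact permutation p = 1). This does not show that they fell alike, since the SDs are wide.

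**Figure D3:**
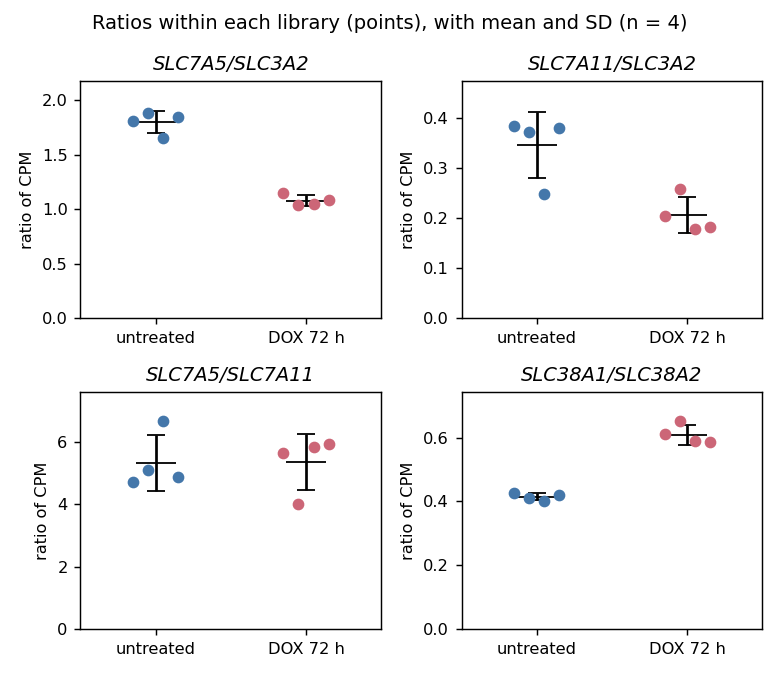
Ratios of CPM between pairs of genes within each library (linear axes from 0), with 1 point per library, a line at the mean and a bar of 1 SD either way (n = 4 per group). SLC7A5/SLC3A2 lies lower in every DOX library and SLC38A1/SLC38A2 lies higher, while the groups overlap for SLC7A11/SLC3A2 and SLC7A5/SLC7A11.

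Other light chains that pair with 4F2hc were looked up after the values of the 9 genes had been seen. SLC7A6 rose (log2FC 0.79, standard error 0.07), as did SLC7A7 (0.47, standard error 0.09), both of which encode y+L exchangers. SLC7A8, which encodes LAT2, fell (log2FC -0.73, standard error 0.06), and SLC7A10 was under the filter. Their adjusted p values were 1.60e-06, 0.000479 and 8.72e-07 (edgeR quasi-likelihood test).

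Across the 6 transporters the summed level fell from 2041 ± 45.5 CPM to 1355 ± 95.9 CPM, and across all 9 genes from 7163 ± 219 CPM to 3117 ± 125 CPM (SD, n = 4 each). Per kilobase of exon, the untreated order ran from GLUL at 530 ± 19.4 CPM through SLC1A5 at 180 ± 7.04, SLC7A5 at 108 ± 1.99, ASNS at 73.9 ± 2.84, SLC38A2 at 58.0 ± 4.96, SLC3A2 at 55.3 ± 3.88, SLC38A1 at 15.8 ± 1.71 and SLC7A11 at 10.2 ± 1.47 to GLS2 at 1.11 ± 0.164 (SD, n = 4 each). SLC38A2 and SLC3A2 were the neighbours in this order whose libraries overlapped. With DOX, SLC38A2 moved up to position 3 at 56.1 ± 3.66 CPM per kilobase, followed by SLC7A5 at 50.2 ± 3.37, SLC3A2 at 42.6 ± 3.37 and ASNS at 37.1 ± 4.08 (SD, n = 4 each). SLC38A2 and SLC7A5 then overlapped, as did SLC3A2 and ASNS, so their order is not fixed by these libraries. GLUL and SLC1A5 stayed at the top and SLC38A1, SLC7A11 and GLS2 at the bottom, with no overlap between neighbours there.

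Within a group the libraries deviated in common ways. Untreated replicate 3 was the lowest of its group in SLC7A11, SLC38A1 and SLC38A2, at -0.32, -0.24 and -0.19 on the log2 scale from the group mean. It was the highest in GLS2, SLC3A2, ASNS and SLC1A5, at 0.25, 0.13, 0.07 and 0.07. Among DOX libraries, replicate 2 was the highest in SLC7A11, SLC38A1, ASNS and SLC38A2, at 0.42, 0.23, 0.19 and 0.13, and the lowest in GLS2, at -0.29. Among untreated libraries GLUL and SLC7A5 varied least, with none more than 0.05 from its group mean. Fits without each of these libraries kept the direction and the call of the 8 genes that passed.

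The genes whose profile over the 8 libraries was closest to each of the 3 members with the largest change were found by the Euclidean distance of centred log2 CPM. For GLUL these were PITPNA, SARM1 and OSBP2, at distances of 0.0671, 0.144 and 0.153. For GLS2 they were AIM2, SPC24 and MAPK15, at 0.269, 0.271 and 0.272, and for SLC1A5 they were IL17D, PLCD3 and HNRNPA1P10, at 0.147, 0.151 and 0.151. PITPNA encodes a phosphatidylinositol transfer protein, and it went from 167 to 56.9 CPM, a log2FC of -1.55 (standard error 0.04) beside -1.59 for GLUL. Since these genes were picked by closeness over the same 8 libraries, a similar log2FC follows from the choice and shows no link between them.

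The surrounding pathways were read through lists of related genes, some of which hold members of the 9. Medians stand beside the 0.01 of all genes tested, and counts beside the 38.5% of them called higher and 38.1% called lower. Of 21 enzymes of glutamine and glutamate metabolism, 16 were tested, and 5 rose, 9 fell and 2 did not pass, with a median log2FC of -0.13. Without GLUL, ASNS and GLS2 the split was 5 higher and 6 lower of 13. GOT1, the cytosolic aspartate aminotransferase, rose from 45.0 ± 2.37 CPM to 104 ± 3.66 CPM (SD, n = 4 each, log2FC 1.21, standard error 0.05). Among 10 glutamine amidotransferases, which take the amide nitrogen for nucleotides, asparagine and amino sugars, 7 fell, 2 rose and 1 did not pass, and the median was -0.42. GMPS, the last step to GMP, fell with a log2FC of -0.91 (standard error 0.05), and PFAS, of purine synthesis, with one of -0.86 (standard error 0.05). GFPT2, of amino sugar synthesis, was at 0.395 ± 0.136 CPM untreated and rose to 2.54 ± 0.380 CPM (SD, n = 4 each, log2FC 2.66, standard error 0.21). It was under 1 CPM in every untreated library, so it passed the filter only through the DOX libraries, where it was high.

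Transporters outside the 9 genes showed the largest falls of their list. Of 44 plasma membrane and related amino acid transporters, 31 were tested, and 11 rose, 15 fell and 5 did not pass, with a median log2FC of -0.12. Without the 6 transporters described, 10 rose and 11 fell of 25. SLC38A5, which encodes the glutamine carrier SNAT5, fell from 413 ± 35.7 CPM to 71.8 ± 5.12 CPM (SD, n = 4 each, log2FC -2.53, standard error 0.07). SLC6A9, the glycine transporter GlyT1, fell with a log2FC of -2.11 (standard error 0.06). SLC1A7, the glutamate transporter EAAT5, fell with one of -2.01 (standard error 0.07), and SLC6A17, a synaptic vesicle carrier, with one of -1.62 (standard error 0.10). These 4 were named as the largest changes of the list.

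Of a list of 6 mitochondrial carriers linked to glutamate and aspartate metabolism, 5 were tested. SLC25A11 and SLC25A15 of this list carry other substrates. SLC25A22, a glutamate carrier, fell from 118 ± 7.58 CPM to 45.1 ± 3.34 CPM (SD, n = 4 each, log2FC -1.39, standard error 0.06), while the other 4 rose, with SLC25A15, SLC25A11 and SLC25A12 at log2FC of 0.45, 0.45 and 0.37. Of 11 genes of glutathione synthesis and turnover, the pathway that xCT feeds, 9 were tested, and 4 rose, 3 fell and 2 did not pass, with a median of 0.16. GCLM and GSS, of glutathione synthesis, fell with log2FC of -0.72 and -0.69 (standard errors 0.09 and 0.05), and GGT1 and GGT7 rose with 0.60 and 0.47 (standard errors 0.13 and 0.06).

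ASNS is a classical target of ATF4, and its list of 23 genes of the amino acid response gave 13 lower, 5 higher and 5 that did not pass, with a median log2FC of -0.31. With library totals alone 9 were higher. ATF4 itself went from 1203 to 942 CPM (log2FC -0.35). DDIT4 and ATF5 fell with log2FC of -1.48 and -1.45 (standard errors 0.08 and 0.09), whereas FGF21 and ATF3 rose with 2.43 and 1.37 (standard errors 0.12 and 0.06). FGF21 stood at 1.99 ± 0.255 CPM untreated and 10.7 ± 1.33 CPM with DOX (SD, n = 4 each). The list thus held large changes in both directions. Amino acid sensing by mTORC1, for which leucine entering through LAT1 is a known signal, was read on 32 genes. Of these 14 rose, 11 fell and 7 did not pass, with a median of 0.06, a split near that of all genes tested. SESN1 rose most of these, from 9.09 ± 0.607 CPM to 36.2 ± 1.402 CPM (SD, n = 4 each, log2FC 1.99, standard error 0.06), and FNIP2 rose with 0.92 (standard error 0.10). SESN3 and RRAGD fell, with log2FC of -1.33 and -1.24 (standard errors 0.10 and 0.05).

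**Figure D4:**
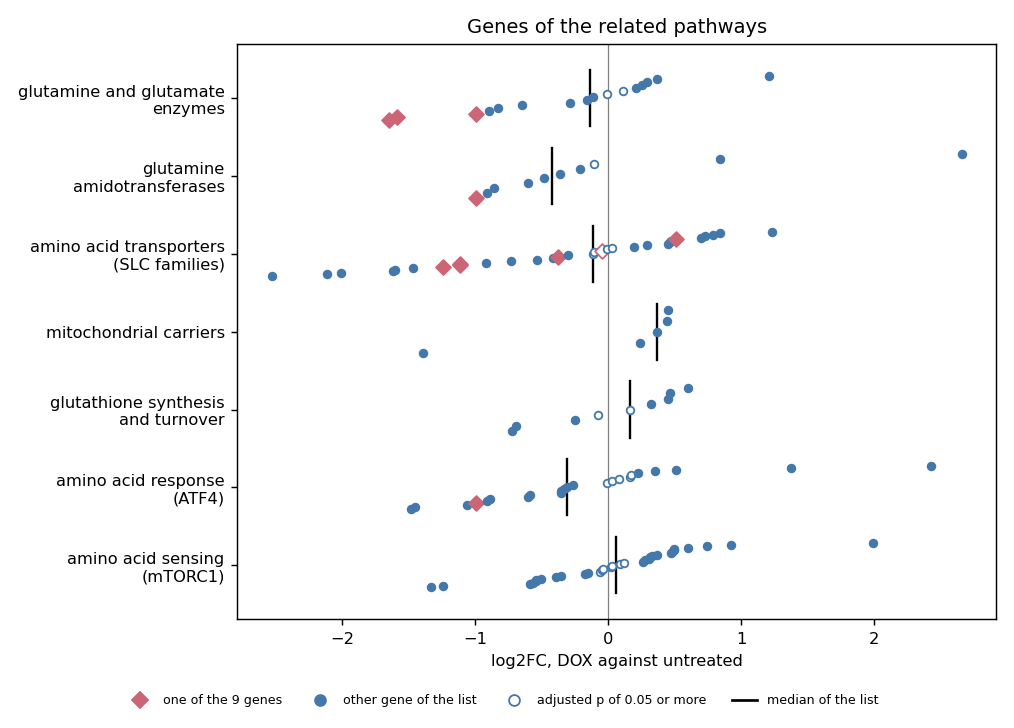
Log2FC (DOX against untreated, horizontal axis) of each tested gene of 7 pathway lists, with 1 symbol per gene, diamonds for the 9 genes, open symbols for an adjusted p of 0.05 or more and a black line at the median of each list. Medians lie between -0.42 for the amidotransferases and 0.37 for the mitochondrial carriers, and every list has symbols on both sides of 0.

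Markers of other cell types were read for the same libraries. Summed neuronal markers lay between 362 and 383 CPM untreated and between 696 and 737 CPM with DOX, with 6 of 8 tested. NEFL went from 44.4 to 285 CPM and NEFM from 266 to 364 CPM, MAP2 and TUBB3 also rose, SYP fell (log2FC -0.18), RBFOX3 did not pass, STMN2 was under the filter and ELAVL4 was at 0. Fibroblast markers, of which 2 of 6 were tested, summed to between 35.1 and 37.6 CPM untreated and between 55.7 and 69.1 CPM with DOX. PDGFRB carried this, from 13.5 to 40.4 CPM, while COL1A1 did not pass, at 22.1 and 23.4 CPM, and COL1A2, COL3A1, DCN and LUM were under the filter. Of 6 oligodendrocyte markers, 1 was tested, MOG and MAG were at 0, and the summed level lay between 3.87 and 5.55 CPM untreated and between 2.58 and 2.96 CPM with DOX. None of 7 microglia markers passed the filter, with sums of at most 1.47 CPM. The part of these lists in the results above was not tested.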

How the data were processed

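Gene counts of 8 RNA-Seq libraries of D283-OMO cells, 4 without and 4 with DOX, were analysed, and the study describes the replicates as independent. Per the submitters' processing notes and the study's methods, Trim Galore served for trimming, STAR for alignment (GENCODE release 32, GRCh38) and RSEM for counting. The authors deposited RSEM expected counts per gene, not normalized. Reads shared by several genes are divided by RSEM. Tool versions and the strand setting are not given in the sources used here. Groups came from the sample labels.

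Counts were rounded. Genes above 1 CPM in at least 4 of 8 libraries were tested in edgeR 4.0.16 (R 4.3.3, TMM, quasi-likelihood test, no covariates), with Benjamini-Hochberg adjustment over all 15222 genes. Log2FC is DOX against untreated, its standard error is the absolute log2FC over the square root of F, and 95% intervals use the normal quantile. Ratios of CPM were tested with exact permutation tests (scipy 1.17.1). Symbols, coordinates and exonic lengths come from GENCODE 29, which holds 96.5% of the rows, and promoters from RefSeq. Floors cover counting error only. No 2 libraries were identical.

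The genes and lists were chosen with earlier results of these data known. Named genes are the 9, the 4 largest called changes of each pathway list with MYC, CAD and NCL, and the 3 nearest profiles of 3 members. Cell type markers, genes that overlap the 9, ATF4, ODC1, MAX, SLC25A18 and further partners of SLC3A2 are named outside this rule, after their values were seen. Some items are not reported here and were left out of the lists, and ratios are adjusted with and without them. Models were tested on simulated data. Alternatives were other normalizations (DESeq2 1.42.0 size factors, library totals), other tests, filters, unrounded counts, a replicate block and each library left out. Fits that keep the genes tested with all 8 libraries were added after seeing the data.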

Additional observations from a re-analysis of the deposited data

Results flagged for a closer look

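In 26 groups of 4 library values (CPM of the 9 genes and the 4 ratios, each in both groups), Dixon's test at 95% marked 3 in which the lowest library lay apart from the others, where chance gives about 1.3. For SLC38A2, untreated replicate 3 stood at 334 CPM and the other 3 libraries between 393 and 402 CPM. In the same library SLC7A11/SLC3A2 was 0.249, against 0.371 to 0.384 in the others. With DOX, replicate 2 had an SLC7A5/SLC7A11 ratio of 4.01, and the others lay between 5.65 and 5.94. SLC7A11 was the lowest of its group in that untreated library and the highest in that DOX library. These are values of single libraries, whose cause was not tested.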

How the results depend on the processing

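The log2FC of the 9 genes were recomputed under 16 alternative settings. The 8 genes that passed kept their direction and their call in all 16, with log2FC from -1.75 to -1.52 for GLS2, -1.62 to -1.46 for GLUL, -1.04 to -0.87 for ASNS, -1.29 to -1.12 for SLC1A5, -1.15 to -0.98 for SLC7A5, -1.24 to -0.98 for SLC7A11, -0.43 to -0.25 for SLC3A2 and 0.42 to 0.64 for SLC38A1. SLC38A2 turned to 0.078 with library totals alone and to 0.0063 without DOX replicate 3. It passed without untreated replicate 3, at -0.12, and with the genes tested kept, at -0.11. Its adjusted p ranged from 0.0302 to 0.944 over these alternatives.

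With library totals alone, 3 in place of 5 genes had a log2FC below -1 (6 without a filter and 5 to 6 with single replicates left out, as ASNS crosses -1), and 9 in place of 5 genes of the amino acid response list were higher, as that scaling moves the median gene up. Without a filter, 2 in place of 1 mitochondrial carriers were lower, since SLC25A18 entered. With the filter at 5 libraries or more, 1 in place of 2 amidotransferases was higher, since GFPT2 dropped out, and leaving out single replicates gave 1 to 2. The study's thresholds were passed by 1084 of all genes with the filter used, by 2097 without a filter, by 562 with 5 libraries or more and by 705 to 922 with single replicates left out, which also tightens the filter, since 1072 to 1091 passed with the genes tested kept.

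The labels do not say whether same-numbered replicates belong together. Their deviations correlated with r of 0.157, 0.144, 0.241 and -0.176, and not every library correlated best with its own number. With so few libraries these values cannot settle whether the replicates are paired. The replicate block left the 7 falls, the rise and the 5 log2FC below -1 unchanged, and 1085 genes passed the study's thresholds. Adjusted over the 4 ratios shown, SLC7A5/SLC3A2 and SLC38A1/SLC38A2 missed 0.05 (0.0571), and over the 6 first set, some of which are not reported here, they passed (0.0429). For the ratios the block cannot reach an exact p below 0.125, and leaving out a library not below 0.0571, so calls lost there come from the number of libraries. The log2 differences with the block were -0.74 for SLC7A5/SLC3A2 and 0.55 for SLC38A1/SLC38A2. Leaving out single libraries gave -0.78 to -0.71 and 0.52 to 0.57 in the same order, and -0.051 to 0.14 for SLC7A5/SLC7A11, whose sign turned in 6 of 8. Depth limits GLS2 most, with 47 to 267 counts per library.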
